A study of Mus musculus with 6 samples.

Results

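The 10 Kruppel-like factor genes Klf2, Klf3, Klf4, Klf5, Klf6, Klf7, Klf9, Klf10, Klf13 and Klf15 were examined in cancer-associated fibroblasts (CAFs), chosen by symbol from the 27179 genes of the count table. All 10 were in the table and all 10 passed the filter on low counts. The CAFs came from 3 mammary tumors of raGFP-Wnt1 mice, females that carry the MMTV-Wnt1 transgene (FVB/NJ), whose promoter is active in mammary epithelium, and 1 copy of the Pdgfra H2B-GFP reporter (C57BL/6). GFP+ cells of each tumor were sorted into a CD34 negative and a CD34 positive fraction, so that each group held 3 libraries and each tumor gave 1 library to each group. No mouse ages were given for these tumors in the sources used here. All cells thus came from Wnt1-driven tumors, without normal gland among these libraries, and the sort kept GFP+ cells, in which the Pdgfra locus is or was active. Since RNA was measured in bulk, fewer cells of a type and less RNA per cell cannot be told apart.

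Kruppel-like factors are transcription factors with C2H2 zinc fingers at the C-terminus, which bind GC-rich and CACCC-type DNA and are related to the SP factors. The N-terminal parts differ and sort the family by partner. Klf3 belongs to a group that recruits CtBP corepressors, Klf9, Klf10 and Klf13 to a group that recruits Sin3a, and Klf2, Klf4, Klf5, Klf6 and Klf7 to a group known mostly for activation. Several are quick-response genes: Klf2, Klf4, Klf6 and Klf10 are induced by serum, shear stress or growth factors, and Klf9 and Klf15 by glucocorticoids. In mesenchymal cells the family is known for roles in adipogenesis and in the smooth muscle program.

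Library totals ranged from 16238059 to 86609267 counts. The CD34 negative library of tumor 3 had counts for 14314 genes against at least 16253 in each other library, and values without it are given below for the fold changes it moves most. The fibroblast genes Pdgfra and Col1a2 were high throughout, at 302 to 506 counts per 1e6 library counts (CPM) and at 16358 CPM or more. Some fibroblast markers differed between the fractions, as counted below. Ptprc, the pan-leukocyte marker, was at 0.481 CPM or less and had no count in the CD34 negative library of tumor 3. CPM values here are scaled by library size and TMM factors, which correct for the makeup of each library. Libraries are named by their fraction and tumor.

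Expression levels were compared first, as CPM per kilobase of exon (RPKM), since genes differ in length. Klf4, a factor of pluripotency and of epithelial and smooth muscle differentiation, had the highest mean at 536 ± 197 RPKM, followed by Klf6, a broadly expressed factor induced on injury, at 425 ± 95.1 (SD, n = 6 libraries). Klf2, known for quiescence and for the response of endothelium to flow, was at 210 ± 117 and Klf9 at 103 ± 56.6 RPKM. The levels of Klf4 and Klf6 stood close together, with Klf4 above Klf6 in 5 of 6 libraries, whereas Klf6 was above Klf2 and Klf2 above Klf9 in 6 of 6. A drop followed to Klf3 and Klf10, at 18.7 ± 4.196 and 18.5 ± 4.24 RPKM, which did not differ beyond their spread. Klf13 and Klf7 were also near each other, at 8.77 ± 2.44 and 8.33 ± 2.28 RPKM, with Klf13 the higher in 3 of 6 libraries. Klf5 was at 2.92 ± 2.46 and Klf15 at 0.365 ± 0.372 RPKM, so that the family spanned from abundant to barely detected transcripts.

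**Figure D1:**
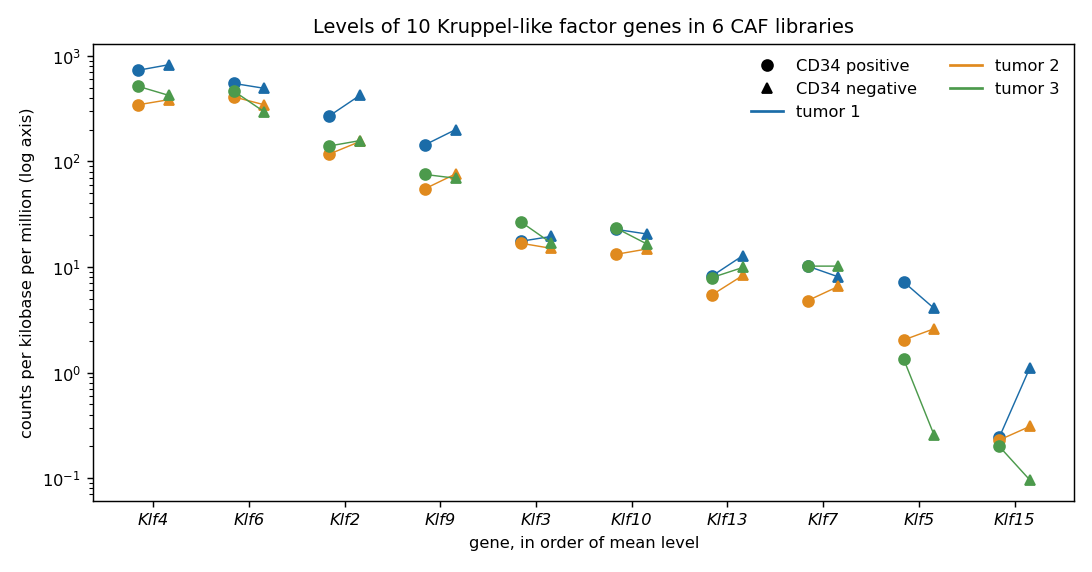
Level of each gene in CPM per kilobase on a log axis, in order of the mean over 6 libraries. Circles are CD34 positive and triangles CD34 negative CAFs, joined within a tumor, and colors mark tumors. Klf4, Klf6, Klf2 and Klf9 lay above 50 in all 6 libraries, and tumor 1 was uppermost for Klf2 and Klf9 in both fractions.

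Whether these genes differ between the CD34 negative and CD34 positive fractions was tested next. In limma-voom, the study's tool, without a tumor term, 0 of the 10 had a Benjamini-Hochberg adjusted p under 0.05. Of all 14855 tested genes 0.121% did, with 0.0202% higher and 0.101% lower in CD34 negative CAFs. That fit called 3 genes higher, fewer than the paper's list of genes upregulated in CD34 negative CAFs, so it did not reproduce that list. At an unadjusted p under 0.05 there was 1 of 10, Klf13, against 14.3% of all genes. With the tumor of origin as a block, 0 of 10 passed against 8.57% of all genes (4.32% higher, 4.25% lower), and 3 of 10 (Klf2, Klf6 and Klf13) had an unadjusted p under 0.05 against 23.3%. The median log2 fold change of the 10 was 0.08 without and 0.05 with the block, beside -0.03 and -0.01 over all tested genes. Positive values are higher in CD34 negative CAFs. Of the other tools, edgeR called 0 of 10 without and with the block (0 and 2 at an unadjusted p under 0.05), where it called 0.0606% and 3.87% of genes, and DESeq2 called 0 without the block (0 unadjusted), where it called 5.45%, and 1, Klf13, with it, where it called 12.6% of genes.

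**Figure D2:**
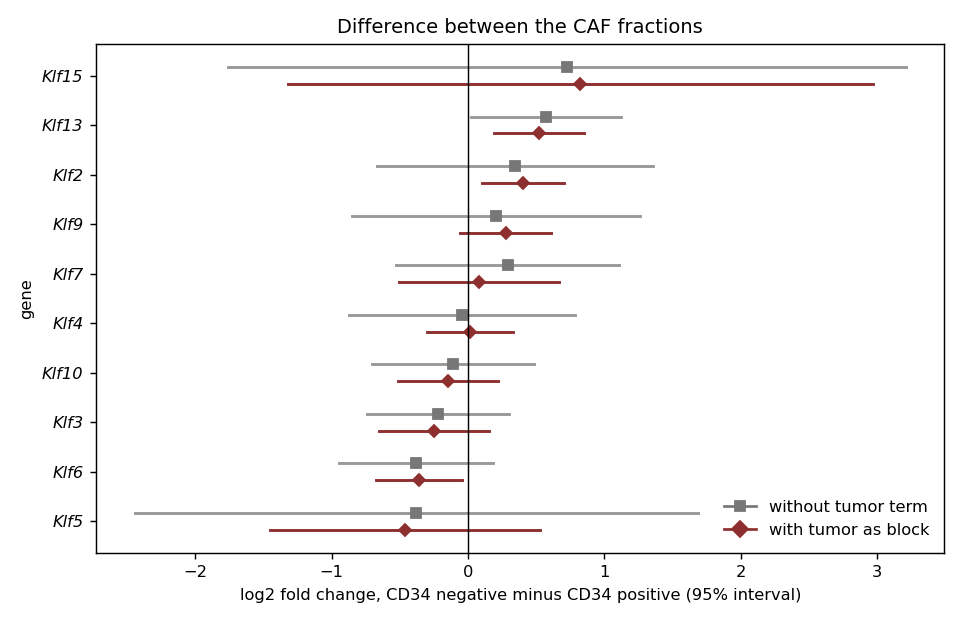
Log2 fold change of CD34 negative against CD34 positive CAFs with its 95% interval from limma-voom, without a tumor term (grey squares) and with the tumor as block (red diamonds). Intervals narrowed with the block for each of the 10 genes. The blocked intervals of Klf13, Klf2 and Klf6 left out 0 before adjustment for multiple testing, and no adjusted p was under 0.05.

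Of the factors that recruit Sin3a, Klf13 was the gene with the smallest p. Klf13 (gene 50794, chromosome 7, 63886351 to 63938915 of GRCm38.p6), a regulator known from cholesterol transport and from chemokine expression in T cells, was at 52.7, 34.9 and 50.8 CPM in CD34 positive CAFs of tumors 1, 2 and 3 and at 81.9, 53.2 and 63.3 CPM in CD34 negative CAFs. All CD34 negative libraries were above all CD34 positive ones, which held for 10.4% of all tested genes and for this gene alone of the 10. Means were 66.1 ± 14.6 and 46.1 ± 9.79 CPM (SD, n = 3). On the log2 scale the fractions differed by 0.57 ± 0.24 (SE; adjusted p = 0.334), and by 0.52 ± 0.15 with the block (adjusted p = 0.0597). The blocked 95% interval ran from a 1.14-fold to a 1.80-fold higher level. With the block the adjusted p was 0.0432 in DESeq2 and 0.104 in edgeR, and with the tumor as random effect in limma-voom it was 0.108. Over the fits to all libraries the change stayed between 0.45 and 0.59. On leaving out 1 library or tumor without the block it ran from 0.33 to 0.71.

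Klf9 (gene 16601, chromosome 19, 23141226 to 23168129), which responds to glucocorticoids and thyroid hormone, was at 469, 180 and 245 CPM in CD34 positive and 653, 248.5 and 226 CPM in CD34 negative CAFs of tumors 1, 2 and 3. It was thus higher in the CD34 negative fraction of tumors 1 and 2 and slightly lower in that of tumor 3, while the groups overlapped. The difference on the log2 scale was 0.21 ± 0.46 (adjusted p = 0.871), and 0.27 ± 0.15 once tumors were blocked (adjusted p = 0.321). Klf10 (gene 21847, chromosome 15, 38291464 to 38300711), an early response gene of TGF-beta, was at 69.1, 40.2 and 70.8 CPM in CD34 positive and 62.5, 45.1 and 50.1 CPM in CD34 negative CAFs. It went down, up and down in the 3 tumors, with a blocked change of -0.15 ± 0.16 and a blocked interval from 0.699-fold to 1.16-fold.

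Of the activators, Klf2 and Klf6 kept one direction in the 3 tumors. Klf2 (gene 16598, chromosome 8, 72319062 to 72321654) was at 491, 213 and 254 CPM in CD34 positive and 769, 280 and 286 CPM in CD34 negative CAFs. The CD34 negative library was the higher in each tumor, by 0.65, 0.39 and 0.17 on the log2 scale, but both libraries of tumor 1 exceeded all others and the groups overlapped. The fitted difference was 0.34 ± 0.44 (adjusted p = 0.762), and 0.40 ± 0.13 within tumors (blocked adjusted p = 0.108). Klf6 (gene 23849, chromosome 13, 5861489 to 5870393) was at 2312, 1725 and 1958 CPM in CD34 positive and 2076, 1448 and 1241 CPM in CD34 negative CAFs. It was lower in the CD34 negative library of each tumor, with a fitted difference of -0.38 ± 0.25 (adjusted p = 0.518), and -0.36 ± 0.14 within tumors (blocked adjusted p = 0.163). Higher levels in 3 of 3 tumors, seen for Klf2 and Klf13, were found in 22.8% of all genes, and lower levels in 3 of 3, seen for Klf6, in 23.4%.

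Klf4 (gene 16600, chromosome 4, 55527137 to 55532475) was at 2221, 1046 and 1568 CPM in CD34 positive and 2507, 1170 and 1286 CPM in CD34 negative CAFs. Its libraries lay in the same order of tumors in both fractions, and the difference between the fractions was 0.01 ± 0.14 on the log2 scale with the block. The blocked 95% interval ran from 0.812-fold to 1.26-fold. With 35889 to 140788 counts per library, counting error was small for this gene. The differences within tumors were 0.17, 0.16 and -0.29 in tumors 1, 2 and 3. The blocked interval does not measure their spread alone, as limma moderates each gene's variance over all genes. Without the block the interval ran from 0.547-fold to 1.73-fold.

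The remaining activators were low. Klf7 (gene 93691, chromosome 1, 64029448 to 64122345), known from neurons and from preadipocytes, was at 13.7, 6.46 and 13.7 CPM in CD34 positive and 10.8, 8.81 and 13.7 CPM in CD34 negative CAFs. The groups overlapped, and the blocked change was 0.08 ± 0.26. Klf5 (gene 12224, chromosome 14, 99298691 to 99313412), a factor of proliferating epithelium, was at 12.5, 3.51 and 2.33 CPM in CD34 positive and 6.997, 4.49 and 0.440 CPM in CD34 negative CAFs, where the last value stood on 16 counts. It followed the tumors more than the fractions, with a blocked change of -0.46 ± 0.44. Of 7 epithelial markers, 4 had their highest mean in tumor 1 and the other 3 (Krt19, Krt5 and Krt14) in tumor 2, and all 7 had their lowest in tumor 3. Epcam was at 22.5, 13.6 and 0.564 CPM in CD34 positive and 23.3, 18.5 and 1.93 CPM in CD34 negative CAFs. All 7 were tested, with a summed level between 20.6 and 144 CPM in CD34 positive and between 58.9 and 168 CPM in CD34 negative CAFs, none of them at 0, and their part in the Klf5 values was not tested.

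Klf3 (gene 16599, chromosome 5, 64803521 to 64832901), the CtBP-binding repressor among the 10, was at 40.5, 38.9 and 62.0 CPM in CD34 positive and 45.1, 34.7 and 38.9 CPM in CD34 negative CAFs. Only the CD34 positive library of tumor 3 stood above the rest, and the blocked change was -0.25 ± 0.18 (adjusted p = 0.466). Klf15 (gene 66277, chromosome 6, 90461043 to 90491803), a glucocorticoid-induced regulator of amino acid and lipid metabolism, was at 0.557, 0.527 and 0.459 CPM in CD34 positive and 2.55, 0.709 and 0.220 CPM in CD34 negative CAFs. The high value rested on 143 counts in tumor 1 and the low one on 8 in tumor 3. Its blocked interval, from 0.400-fold to 7.83-fold, was the widest of the 10, and within tumors its log2 ratio ran from 2.12 in tumor 1 to -1.03 in tumor 3.

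Without the CD34 negative library of tumor 3, the unblocked fit still called 0 of the 10 (0 unadjusted). Klf5 then changed by 0.54 in place of -0.38, Klf15 by 1.44 in place of 0.72, Klf2 by 0.56 in place of 0.34 and Klf9 by 0.47 in place of 0.21. Without both libraries of tumor 3, the blocked fit called 3 of the 10, with Klf2 at 0.51, Klf9 at 0.46 and Klf13 at 0.61 (adjusted p = 0.0307, 0.0399 and 0.0182), where it called 13% of all genes. That fit held 4 libraries. Without tumor 1 or tumor 2 it called 0 of the 10 (2 and 0 unadjusted) and 7.61% and 5.82% of all genes, and Klf13 changed by 0.49 and 0.46.

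Differences between the tumors were larger than those between the fractions. For 10 of 10 genes, the range of the 3 tumor means exceeded the size of the blocked change between fractions, which was so for 74.1% of all tested genes. This comparison was added after the values were seen, and a range over 3 means tends to exceed a single difference. In a moderated F-test of the tumor terms in limma-voom, also added then, 3 of the 10 passed, against 4.03% of all genes: Klf2 (adjusted p = 0.00620), Klf9 (0.00743) and Klf4 (0.0201). The mean of tumor 1 lay above that of tumors 2 and 3 by 1.26 for Klf2, 1.31 for Klf9 and 0.91 for Klf4 on the log2 scale. Tumor 1 had the highest mean for 8 of the 10, all but Klf3 and Klf7, and for 35.7% of all genes. It also had the highest mean for 7 of 7 tested endothelial and 4 of 7 epithelial markers, whose part in these values was not tested.

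**Figure D3:**
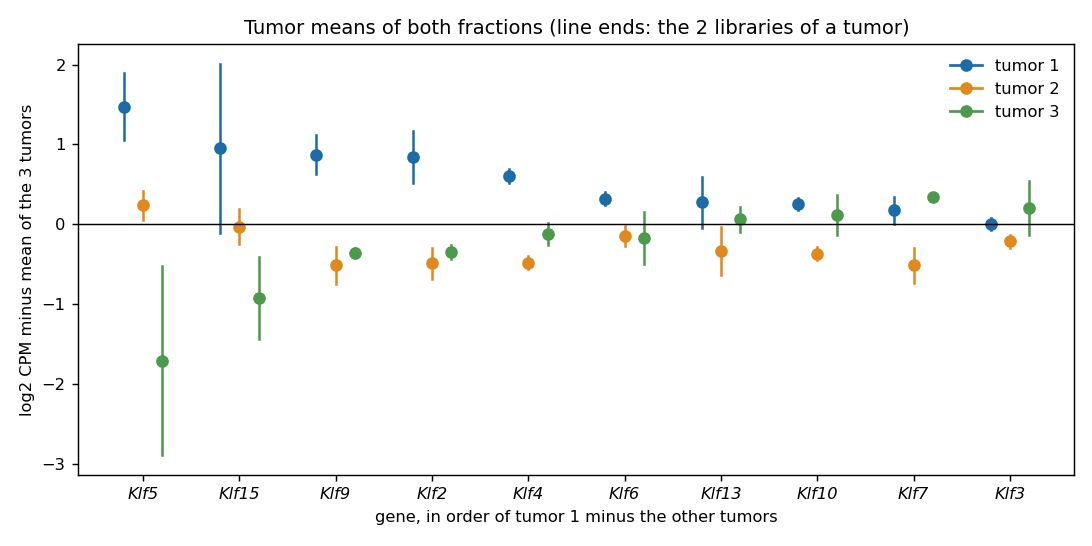
Mean log2 CPM of both libraries of each tumor, set against the mean of the 3 tumors. Line ends are the CD34 negative and the CD34 positive library of that tumor. For Klf9, Klf2 and Klf4, both libraries of tumor 1 stood apart from the other 4, and tumors 2 and 3 lay close together for Klf2 and Klf9.

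Without tumor 1, tumors 2 and 3 did not differ in any of the 10 at an adjusted p under 0.05, with 3 at an unadjusted p under 0.05 in limma-voom, where 2.75% of all genes were called. Adjusted p for Klf2, Klf9 and Klf4 were then 0.786, 0.781 and 0.348. Without tumor 2 there were 2 calls (Klf2 and Klf9), against 4.87% of all genes, and without tumor 3 there were 7, against 15.1%. edgeR called Klf2 and Klf9, where it called 1.12% of genes, and DESeq2 called Klf2, Klf4, Klf5 and Klf9, where it called 10.7%. Only 2 libraries stand for each tumor, and a tumor cannot be told apart from whatever was particular to its mouse, dissociation or sort.

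The promoters of Klf2, Klf4 and Klf9, which moved together across the tumors, and of Klf13, whose fractions did not overlap, are shown for comparison. RefSeq windows of GRCm38.p6 were at hand for 8 of the 10 genes, and not for Klf5 and Klf10. Each run holds the 250 bases before the transcription start, 5′ to 3′ in the direction of the gene. Capitals mark CACCC, the Kruppel-like factor box, and GGGCGG, the SP-type GC box, on either strand, so that GGGTG and CCGCCC also stand in capitals.
Klf2, chr8:72318812-72319061, plus strand: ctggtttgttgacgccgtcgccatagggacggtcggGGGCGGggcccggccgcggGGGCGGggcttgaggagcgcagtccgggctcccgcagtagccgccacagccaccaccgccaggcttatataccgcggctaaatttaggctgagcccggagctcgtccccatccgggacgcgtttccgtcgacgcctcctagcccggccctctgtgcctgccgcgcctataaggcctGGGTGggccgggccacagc
Klf4, chr4:55532476-55532725, minus strand: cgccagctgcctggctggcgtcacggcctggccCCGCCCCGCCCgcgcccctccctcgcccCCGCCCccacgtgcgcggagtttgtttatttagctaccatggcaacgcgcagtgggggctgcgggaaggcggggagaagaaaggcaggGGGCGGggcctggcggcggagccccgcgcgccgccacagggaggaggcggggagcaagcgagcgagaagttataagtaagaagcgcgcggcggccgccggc
Klf9, chr19:23140976-23141225, plus strand: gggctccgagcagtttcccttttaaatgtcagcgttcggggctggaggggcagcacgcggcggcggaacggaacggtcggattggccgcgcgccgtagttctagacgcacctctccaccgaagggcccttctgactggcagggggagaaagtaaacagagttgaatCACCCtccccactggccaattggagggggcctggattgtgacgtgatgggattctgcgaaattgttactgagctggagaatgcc
Klf13, chr7:63938916-63939165, minus strand: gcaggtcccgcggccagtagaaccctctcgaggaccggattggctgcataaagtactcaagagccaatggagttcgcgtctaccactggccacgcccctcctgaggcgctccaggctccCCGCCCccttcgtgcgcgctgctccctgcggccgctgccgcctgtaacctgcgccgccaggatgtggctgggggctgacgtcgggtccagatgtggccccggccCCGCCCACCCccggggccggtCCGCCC

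A CACCC box stood in 6 of the 8 members' windows, against 52.0% of 32841 windows of all genes, and a GGGCGG box in 7 of 8, against 32.7%. Both motifs were searched on both strands, and in the Klf13 window they overlap. The window of Klf4 held 4 GC boxes and no CACCC, and that of Klf9 held 1 CACCC and no GC box. Neither box was thus in the windows of all 3 genes called between tumors in limma-voom. TGACG, a part of the cyclic AMP response element, stood in 5 of 8 windows, including those of Klf2, Klf4, Klf9 and Klf13, against 17.8% of all. Neither TATAAA, found in 12.4% of all windows, nor a CArG box, the serum response motif, found in 1.5%, was in any of the 8. Windows of the members were GC-rich, from 59.2% to 78.4% against a median of 52.4%, which by itself makes such motifs more frequent.

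Immediate early genes, which cells switch on within minutes of serum, stress or tissue dissociation, were set beside the family because Klf2, Klf4, Klf6 and Klf10 respond to the same stimuli. Of 16 such genes, 6 differed between tumors in the F-test (Fosb, Fosl2, Egr2, Atf3, Btg2 and Zfp36), against 4.03% of all genes. All 6 had their highest mean in tumor 1, as did 316 of the 598 genes called over the whole table. Fosl2 was at 776.55, 385 and 373 CPM in CD34 positive and 792, 375 and 314 CPM in CD34 negative CAFs of tumors 1, 2 and 3, which placed tumor 1 above the others as for Klf2, Klf4 and Klf9. Between the fractions, 0 of 16 passed in limma-voom without the block, with 1 at an unadjusted p under 0.05, against 14.3% of all genes. With the block 3 rose and 1 fell, against 4.32% and 4.25% of all genes. Jund changed by 0.71, Egr2 by 0.52 and Ier2 by 0.49, and Atf3 fell by 0.62, with blocked adjusted p of 0.0479, 0.0348, 0.0459 and 0.0192. Several of the 16 were high in every library, with Fos at 3750 to 5590 CPM and Egr1 at 3438 to 5212 CPM. Others were low, with Fosl1 at 4.58 to 7.69 CPM. The list's part in the levels and in the tumor 1 values of the Kruppel-like factors was not tested.

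**Figure D4:**
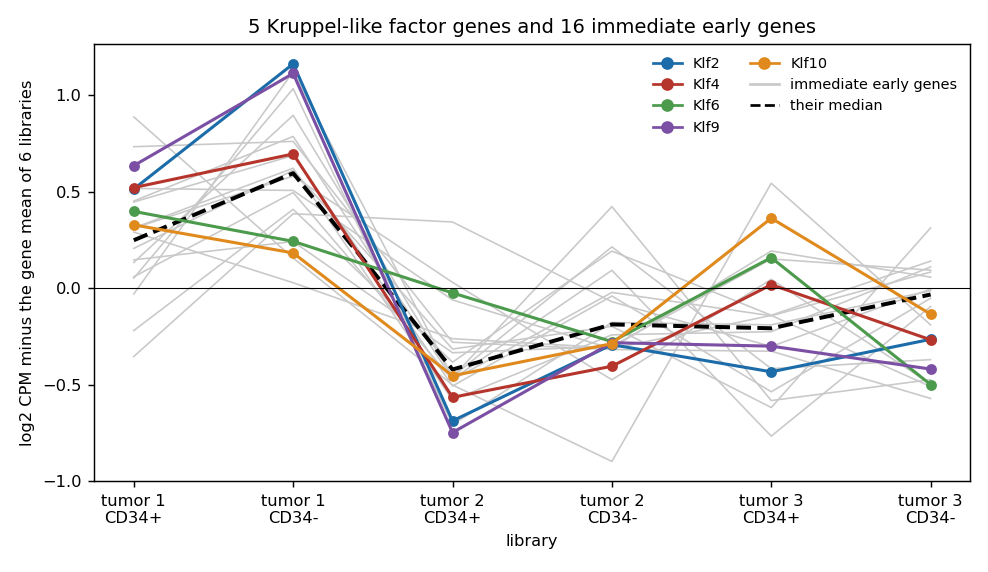
Log2 CPM minus the gene's mean over 6 libraries, with libraries ordered by tumor. Colored lines are 5 Kruppel-like factor genes, grey lines 16 immediate early genes and the dashed line their median, which was 0.25 and 0.60 in the libraries of tumor 1 and below 0 in the other 4.

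Genes of glucocorticoid response were examined because Klf9 and Klf15 belong to it. Of 10 genes, 4 differed between tumors in the F-test (Tsc22d3, Sgk1, Errfi1 and Cebpd), against 4.03% of all genes. Each was highest in tumor 1, as were 316 of the 598 genes called over the whole table. The receptor gene Nr3c1 changed by -0.39 between fractions, at an adjusted p of 0.348. With the block, 3 of 10 rose in CD34 negative CAFs, against 4.32% of all genes. These were Tsc22d3, the glucocorticoid-induced leucine zipper, by 0.91, the clock gene Per1 by 0.69 and Ddit4, an inhibitor of mTORC1, by 0.83, with adjusted p of 0.00804, 0.0134 and 0.0370. Without the block 0 of 10 passed, with 5 at an unadjusted p under 0.05, against 14.3% of all genes. The list's median was then 0.01, or 0.49 without the CD34 negative library of tumor 3 and 0.31 without the CD34 positive library of tumor 1.

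Clock genes were read alongside, since Klf9, Klf10 and Klf15 are clock outputs in many tissues. Of 15, 0 passed in limma-voom without the block, with 5 at an unadjusted p under 0.05, against 14.3% of all genes. With the block 4 rose, against 4.32% of all genes. Nr1d1, a repressor of the clock loop, was at 56.6, 37.8 and 42.3 CPM in CD34 positive and 114, 74.8 and 108 CPM in CD34 negative CAFs. It was higher without overlap, as were 5 of the 15 and 10.4% of all genes, and rose by 1.11 with a blocked adjusted p of 0.00280. Bhlhe41, Per1 (also counted among the glucocorticoid-responsive genes) and Bhlhe40 were the others, at 1.30, 0.69 and 0.52. The list's median was 0.69, and 0.48 with the block. It was 0.23 without the CD34 positive library of tumor 2, 0.38 in edgeR and 0.36 in DESeq2.

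Among TGF-beta response genes, the setting in which Klf10 is known, 2 of 8 tested rose and 1 fell with the block, against 4.32% and 4.25% of all genes. Without the block 0 passed, with 2 at an unadjusted p under 0.05, against 14.3% of all genes. Pmepa1, a feedback inhibitor of the pathway, rose by 1.34 and Ccn2, a matricellular factor, by 1.09, while the matrix protein gene Tgfbi fell by 1.51, with blocked adjusted p of 0.00282, 0.00870 and 0.00674. Klf10 itself had a blocked change of -0.15.

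The other family members and the partners of the 10 were compared last. Of 7 further Klf genes, 4 were tested, and Klf16, of the Sin3a group, rose with the block by 0.65 ± 0.17 with an adjusted p of 0.0439, while without the block 0 of 4 passed and its adjusted p was 0.204 (the 1 gene unadjusted). It was the 1 gene of the 4 called with the block, against 4.32% of all genes called higher. Its level was 26.2, 21.3 and 23.96 CPM in CD34 positive and 48.5, 32.1 and 35.0 CPM in CD34 negative CAFs, higher without overlap, as for 10.4% of all genes. Klf11, Klf12 and Klf8 did not pass, at blocked changes of 0.16, -0.36 and 0.11. Klf1, Klf14 and Klf17 were too low to be tested. Of 9 SP factors, 5 were tested and 0 passed with or without the block, with 0 unadjusted in the unblocked fit, and Sp1 and Sp3, the common members, had blocked changes of 0.03 ± 0.14 and 0.08 ± 0.13.

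Of 10 corepressor and coactivator genes, 0 passed in either fit, with Ctbp1 the 1 gene at an unadjusted p under 0.05 without the block, at 0.43 and an adjusted p of 0.302. Sin3a, at -0.09, and Ctbp2, at 0.11, changed by less than their standard errors. The MEK5-ERK5-MEF2 pathway, which induces Klf2 and Klf4 in endothelium, had 0 of 7 genes called in either fit and 0 at an unadjusted p under 0.05 without the block. Its median was 0.20, and between 0.105 and 0.32 without 1 library or tumor, with Mef2d at 0.46 and Mapk7, which encodes ERK5, at 0.20. Of 5 ubiquitin ligase genes linked to Kruppel-like factor proteins, 0 passed, with Fbxo32 at 1.07 and Smurf1 at 0.49 at unadjusted p under 0.05.

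Endothelial cells express much Klf2 and Klf4, so their markers were read beside these genes. Of 8 endothelial markers 7 were tested, and the summed level was between 56.9 and 124 CPM in CD34 positive and between 16.8 and 38.2 CPM in CD34 negative CAFs. Tek made up most of it in CD34 positive CAFs and fell by 3.09 with a blocked adjusted p of 0.00154. This was the 1 call among the 7, against 4.25% of all genes called lower. The list as a whole did not go with Tek, as its median change was 1.37 and 1.05 with the block. There were 0 calls in the unblocked fit and 2 unadjusted. Within tumors 1, 2 and 3 the list's median was 0.19, 0.67 and -0.36. In 3 of 3 tumors 2 of the 7 were higher and 2 lower, against 22.8% and 23.4% of all genes. Pecam1 was at 12.9 CPM or less and Cdh5 at 4.18 CPM or less, and Cdh5, Tie1, Emcn and Cldn5 had no count in at least 1 library. All 7 tested markers had their highest mean in tumor 1, as Klf2, Klf4 and Klf9 did, with 0 called in the F-test of the tumor terms and 4 at an unadjusted p under 0.05, and their part in the Klf2 and Klf4 values was not tested. Leukocyte markers, 7 of 8 tested, summed to between 7.61 and 20.0 CPM in CD34 positive and between 13.8 and 17.2 in CD34 negative CAFs, with Ptprc, Itgam and Cd68 at 0 in at least 1 library. Pericyte markers, 7 of 7 tested and none at 0, also did not overlap in their sum. It was 88.2 to 189 CPM in CD34 positive and 214 to 240 CPM in CD34 negative CAFs, with Cspg4 the most abundant marker. The list went both ways: with the block 4 of 7 were called higher and 2 lower, against 4.32% and 4.25% of all genes. Without the block 0 were called, with 6 unadjusted. Their part in the Klf13 and Klf2 values was not tested. Of 8 fibroblast markers, 1 was called lower in CD34 negative CAFs without the block, against 0.101% of all genes. With the block 1 was called higher and 3 lower, against 4.32% and 4.25% of all genes.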

How the data were processed

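RNA of CD34 negative and CD34 positive GFP+ CAFs from 3 tumors was sequenced after a TruSeq RNA v2 preparation. The authors used Rsubread to align reads to GRCm38/mm10 and to count them on NCBI gene models (featureCounts in the submitters' processing notes). The deposited values are raw counts per gene, not normalized, with replicates kept apart, and the table also gives gene length. Strand and multi-mapping settings were not given in the sources used here. Genes overlapping the 10 members that were in the table had at most 55 counts. Members and gene lists were chosen with earlier results of these data known.

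The filter, scaling and test followed the study's methods, whose model terms were not given in the sources used here. Without a tumor term 3 genes were called higher in CD34 negative CAFs, and 642 with the tumor as block. The paper's list of genes upregulated in that fraction is longer than the first of these. Genes were filtered with filterByExpr (minimum count 10), scaled by TMM and compared with limma-voom on all 14855 remaining genes, two-sided, with Benjamini-Hochberg adjustment and a threshold of 0.05. The fit without a tumor term was taken as the first one (R 4.3.3, limma 3.58.1, edgeR 4.0.16, DESeq2 1.42.0). Fitted p-values and adjusted p-values come from limma-voom unless another tool is named. Groups and tumor numbers came from the sample titles. Libraries with the same tumor number are pairs, as each tumor gave both fractions. Their departures from the mean of their group had correlations over genes of 0.373, 0.350 and 0.219 within tumors 1, 2 and 3, and the fit with the tumor as replicate block is therefore given beside the unblocked one. Replicate libraries differed by far more than sampling noise, with a chi-square of at least 133 per gene. RPKM were computed from the counts, the TMM-scaled library sizes and the deposited lengths. The fits were tested on simulated data. Named genes are the 10 members, genes of the lists that passed in either fit or were among the 4 with the smallest p, and the genes nearest in pattern to the members with the largest and the smallest change. Other genes, among them single members of the lists quoted for their level, were chosen after their values were seen. Alternatives covered normalization, filter, test, block and each library and tumor left out. The test between tumors was added after seeing the data.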

Additional observations from a re-analysis of the deposited data

How the results depend on the processing

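In the comparison of the fractions, the count of Kruppel-like factor genes called was 0 under 21 of 23 alternatives, 1 in DESeq2 with the replicate block and 0 to 3 on leaving out libraries or tumors, 3 being that without tumor 3 with the replicate block. Klf3, Klf6 and Klf13 kept their sign under all 23, though Klf3 was at -0.0013 without the CD34 positive library of tumor 3. Klf4 reversed to 0.012 without a low-count filter, 0.038 in edgeR, 0.026 in DESeq2, and 0.014, 0.017 and 0.0052 with the replicate block in limma-voom, edgeR and DESeq2, Klf7 to -0.017 in edgeR and -0.028 in DESeq2, and Klf5 to 0.26 with sample quality weights. On leaving out 1 library or tumor without the block, changes ranged from -0.12 to 0.74 for Klf2, -0.37 to 0.25 for Klf4, -1.26 to 0.54 for Klf5, -0.35 to 0.51 for Klf7, -0.26 to 0.63 for Klf9, -0.43 to 0.078 for Klf10 and -0.31 to 1.44 for Klf15. With the replicate block they ranged from -0.071 to 0.15 for Klf4, -0.965 to 0.044 for Klf5, -0.16 to 0.23 for Klf7 and -0.34 to 0.0092 for Klf10. Klf2 was below 0 only without the CD34 negative library of tumor 1.

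Over all genes, 32 were called with library size alone, 9 in edgeR, 698 in DESeq2, 161 with sample quality weights, 703 with the tumor as random effect, and 1273, 575 and 1733 with the replicate block in limma-voom, edgeR and DESeq2, against 18; leaving out a library or tumor gave 0 to 86, and with the replicate block 1134, 851 and 2019 without tumors 1, 2 and 3. Of the genes in the lists around the family, 4 were called in DESeq2, 7 with the random effect, 18, 5 and 21 with the replicate block in limma-voom, edgeR and DESeq2, and 0 to 2 on leaving out without and 11 to 28 with the replicate block, against 0. The tumor terms called 167 genes in edgeR and 1534 in DESeq2 against 598, and 410 to 5180 on leaving out, with 0 to 7 Kruppel-like factor genes: 6 without the CD34 negative and 7 without the CD34 positive library of tumor 3. The cause of these shifts was not tested. Counting error is largest for Klf15 and Klf5, with 8 and 16 counts in their lowest library.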

Other observations

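Smooth muscle genes are known to be regulated by Klf4 and Klf5. Of these, 8 of 8 tested had a higher CD34 negative than CD34 positive level in 3 of 3 tumors, against 22.8% of all genes. The median log2 fold change of the 8 was 1.26. The median was between 0.69 (without tumor 3) and 2.10 (without the CD34 positive library of tumor 2) on leaving out a library or tumor. With the tumor block 3 passed in limma-voom, all higher, where 4.32% of all genes were called higher. Mylk rose by 1.78, Tagln by 1.54 and Acta2 by 1.15, with adjusted p of 0.00494, 0.0325 and 0.0439. Without the block 0 passed and 2 had an unadjusted p under 0.05. Acta2 also differed between tumors, at 75.3, 273 and 75.4 CPM in CD34 positive and 94.0, 440 and 348 CPM in CD34 negative CAFs, with tumor 1 the lowest, the opposite of Klf2, Klf4 and Klf9. The summed pericyte markers did not overlap between the fractions either, though with the block 4 of the 7 were called higher and 2 lower. Of the 7 epithelial markers, 6 rose from the CD34 positive to the CD34 negative library within every tumor, against 22.8% of all genes. None fell within every tumor. Their median change was 0.88, and 0.62 with the block, with 0 called in either fit. Krt5 and Krt14 had their highest mean in tumor 2, as did Acta2, which the paper counts among its epithelial markers. The part of pericytes and of epithelial cells in the smooth muscle values was not tested. Of the adipogenic genes, 8 of 10 were tested. With the block Cebpa rose by 0.70 with an adjusted p of 0.0482, the 1 call of the 8, against 4.32% of all genes called higher. Without the block 0 of the 8 passed (2 unadjusted). Their median of -0.33 changed sign with sample quality weights (0.12) and without the CD34 positive libraries of tumor 1 (0.087) or 2 (0.28), the CD34 negative library of tumor 3 (0.34) or tumor 2 (0.075). Genes of branched-chain and other amino acid catabolism, a process in which Klf15 acts in liver and muscle, had 0 of 8 called in either fit, 2 at an unadjusted p under 0.05 without the block and a median of -0.22, which was 0.070 without the CD34 negative library of tumor 3.

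Genes with a pattern over the 6 libraries most like that of a member were found by the root mean square difference of centred log2 CPM. For Klf6, the member with the lowest fold change without the block (with it Klf5 was lower, at -0.46 against -0.36), they were Pi4kb, Sat1 and Gpcpd1, at 0.063, 0.063 and 0.078. For Klf15, the member with the highest, they were Angpt2, Rin3 and Slc22a5, at 0.47, 0.49 and 0.49, a poor likeness. For Klf2, chosen after its values were seen, the nearest gene was Klf9 (genes below 3 in mean log2 CPM were left out), at 0.10, followed by Nopchap1 at 0.13. For Klf4, likewise chosen, they were Icam1, Matn2 and Mcl1, at 0.079, 0.096 and 0.10.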
